A study of Mus musculus with 9 samples.

Results

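The miR-200 family comprises 5 hairpins, mir-200b, mir-200a, mir-429, mir-200c and mir-141, whose miRNAs were measured here in the extracellular vesicles (EVs) of mouse bronchoalveolar lavage fluid (BALF), the saline wash of the airways and air spaces. All entries of these hairpins in the deposited small RNA sequencing table were taken by name, with both arms and all isomiRs, which gave 41 of the 1308 entries. Of these, 9 were mature miRNAs and 32 were isomiRs, which are variants of a mature miRNA listed with a plus suffix (26 entries) or a minus suffix (6 entries). The mice were female C57BL/6J animals of 8 to 10 weeks that inhaled filtered air (FA), 1 ppm ozone (O3) or 2 ppm O3 for 3 hours in a whole body chamber, and lavage followed on the next day. Each exposure had 3 libraries, each made from the pooled lavage of 4 mice in FA and of 3 mice in both O3 groups, so pool size and exposure to O3 cannot be told apart. EV RNA was bound to an affinity column without sorting of the vesicles by cell of origin, so fewer vesicles from epithelial cells and less of a miRNA per vesicle cannot be told apart.

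A miRNA hairpin is cut to a short duplex whose strands come from its 5p and 3p arms, and the strand that is loaded into an Argonaute protein directs repression of mRNAs that pair with its seed. The miR-200 family is abundant in epithelia, including the airway epithelium, and is known for repressing ZEB1 and ZEB2, transcription factors that silence E-cadherin during epithelial-mesenchymal transition. Its genes lie in a pair of clusters on different chromosomes, and in each cluster the hairpins are close enough to arise from a shared primary transcript.

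The 3p strands, which carried most of the family's reads, are shown because they fall into seed groups that cross the clusters. The sequences are those of RefSeq (GRCm38.p6), written 5′ to 3′, with the seed (bases 2 to 8) in capitals.
miR-200b-3p: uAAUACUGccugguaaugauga
miR-200c-3p: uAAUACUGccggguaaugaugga
miR-429-3p: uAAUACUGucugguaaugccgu
miR-200a-3p: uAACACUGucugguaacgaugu
miR-141-3p: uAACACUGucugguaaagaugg
Counted from the 5′ end, the seed of miR-200b-3p differed from that of miR-200a-3p by U4C alone. Over the 22 positions compared, miR-200b-3p differed from miR-200c-3p at 2 positions (U11G and A22G), and miR-200a-3p from miR-141-3p at 2 positions (C17A and U22G). Each of these near-identical pairs has a member in each cluster, and reads shortened or misread at these bases could be split between them, so their separate levels are uncertain to that degree. Of the 394 mature miRNA names in the table, 303 had a RefSeq sequence, and no miRNA outside the family among them had either of these seeds.

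The 5p strands that the results turn on are those of mir-200b and mir-200a, which share a seed with each other.
miR-200b-5p: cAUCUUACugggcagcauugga
miR-200a-5p: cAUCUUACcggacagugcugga
These strands differed at 5 of 22 positions (U9C, G12A, C16U, A17G and U18C).

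In the mm9 genome, the mir-200b cluster (mir-200b, mir-200a and mir-429) spans 1846 bases of the minus strand, from mir-200b (chr4:155429790-155429859) through mir-200a (chr4:155429005-155429094) to mir-429 (chr4:155428014-155428096). These hairpins lie in introns of the protein-coding gene Ttll10 and within the non-coding transcript gene Gm13648, of which mir-429 overlaps an exon. The mir-200c cluster (mir-200c and mir-141) spans 477 bases of the minus strand, with mir-200c at chr6:124668340-124668408 and mir-141 at chr6:124667932-124668003. Both lie within the non-coding gene Gm15884, outside its exons, and the nearest protein-coding genes are Phb2 on the plus strand and Ptpn6 on the minus strand. In all 5 hairpins the mm9 sequence at these positions equalled the RefSeq hairpin.

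Levels are given as RPMMM, miRNA reads scaled so that every pool has a total of 1000000, as the authors deposited them. The steps between low values gave 535533 to 773272 miRNA reads in the FA pools, 555115 to 860955 after 1 ppm O3 and 281540 to 300916 after 2 ppm O3, and no value above 0 was below about 10 reads. Within an exposure, Pearson correlations between pools were 0.894 to 0.904 in FA, 0.842 to 0.884 after 1 ppm and 0.800 to 0.814 after 2 ppm across the entries, which are not independent replicates. The entries of miR-2137 held 0.0784% to 0.641% of the miRNA reads in FA and 18.7% to 20.3% after 2 ppm O3, and 8 hairpins with no match in the RefSeq gene table held 0.308% to 0.46% in FA and 22.9% to 27.3% after 2 ppm O3. Since RPMMM sum to a fixed total in each pool, a larger share for these entries leaves a smaller share for the rest, and changes are therefore given beside the median over all entries. Those of these entries above the filter were kept among all entries under every scaling, and the rising ones raise that median.

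In FA the family held 6.55%, 6.48% and 6.94% of all miRNA reads in the 3 pools. After 1 ppm O3 it held 5.13%, 5.17% and 5.61%, and after 2 ppm O3 2.63%, 2.68% and 3.02%. The ranges of the 3 exposures did not overlap, and the order followed the concentration. The means were 6.66% ± 0.247 in FA, 5.3% ± 0.268 after 1 ppm and 2.78% ± 0.217 after 2 ppm (SD, n = 3 pools), which are 0.797 and 0.417 times the FA mean after 1 and 2 ppm. A sum over chosen members was not tested.

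**Figure D1:**
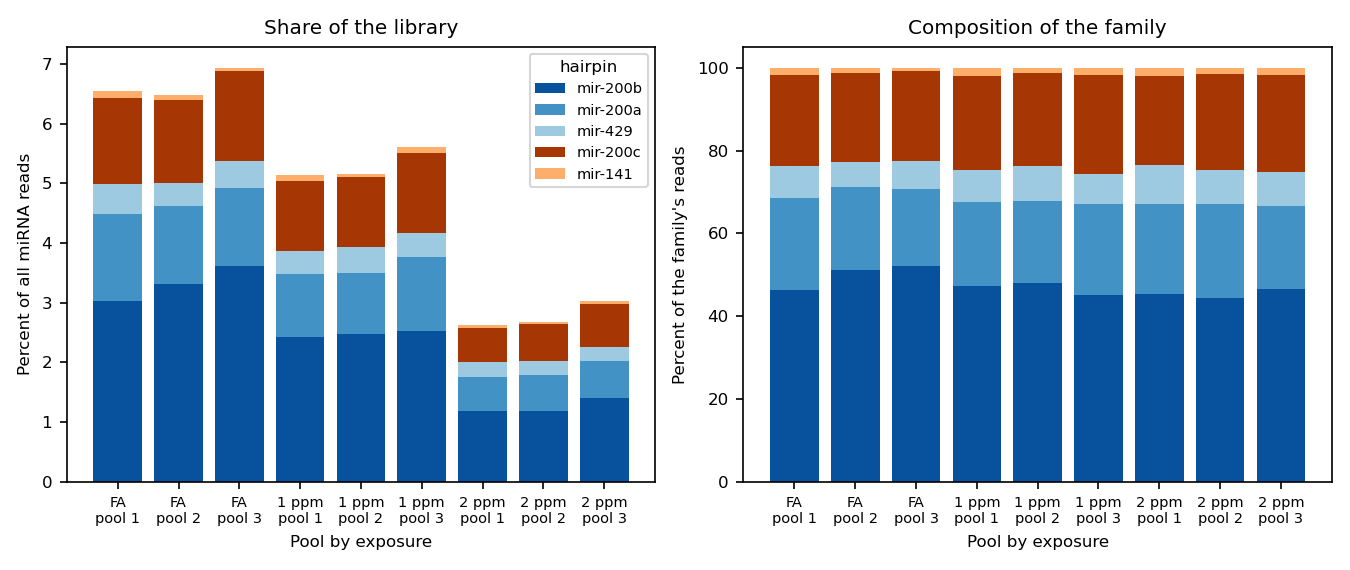
The left panel stacks the 5 hairpins as percent of all miRNA reads in each of the 9 pools, and the right panel stacks them as percent of the family's own reads. The family's share was 2.63% to 3.02% in the pools exposed to 2 ppm O3, while the part of the mir-200b cluster (blue) within the family stayed between 74.3% and 77.4% in all 9 pools.

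Both clusters contributed to this difference. The entries of the mir-200b cluster (26 entries) summed to 5.12% ± 0.218 of the reads in FA, 3.99% ± 0.156 after 1 ppm and 2.1% ± 0.146 after 2 ppm O3 (SD, n = 3), log2 differences from FA of -0.36 and -1.29. The 15 entries of the mir-200c cluster summed to 1.54% ± 0.0459, 1.31% ± 0.119 and 0.679% ± 0.0728, log2 differences of -0.23 and -1.18. In the values as deposited, neither cluster overlapped between exposures.

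Grouped by seed rather than by cluster, the 3p strands of miR-200b, miR-200c and miR-429 held 4.74% ± 0.265 of the reads in FA, 3.82% ± 0.146 after 1 ppm and 1.96% ± 0.175 after 2 ppm O3 (SD, n = 3). The seed group of miR-200a and miR-141 held 1.19% ± 0.149, 1.05% ± 0.141 and 0.549% ± 0.0171. Relative to FA the groups stood at 0.805 and 0.88 times after 1 ppm and at 0.414 and 0.462 times after 2 ppm.

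Among the mature members, mean levels in FA ranged from rank 8 of all entries for miR-200b-3p to rank 333 for miR-141-5p and rank 819 for miR-200c-5p. The order in FA was miR-200b-3p (29535 ± 2433 RPMMM), miR-200c-3p (13702 ± 462), miR-200a-3p (11207 ± 1284), miR-429-3p (4178 ± 501), miR-200b-5p (1461 ± 326), miR-200a-5p (1325 ± 329.7), miR-141-3p (689.9 ± 252), miR-141-5p (104 ± 66.9) and miR-200c-5p (11.2 ± 19.5; SD, n = 3), the last of which was above 0 in 1 pool. Neighbours in this order did not overlap, except miR-200b-5p and miR-200a-5p, whose ranges did. In the 1 ppm pools the ranges of miR-200c-3p and miR-200a-3p overlapped, as did those of miR-141-3p, miR-200b-5p and miR-200a-5p. After 2 ppm O3 miR-200b-5p lay above both miR-141-3p and miR-200a-5p, which overlapped with each other. All mature sequences have 22 bases except miR-200c-3p with 23, so length does not enter these comparisons.

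The most abundant member, miR-200b-3p, had 27087, 29565 and 31953 RPMMM in the FA pools. It had 22153, 22605 and 23085 RPMMM after 1 ppm O3 and 10637, 10771 and 12503 RPMMM after 2 ppm O3. No pool overlapped with a pool of another exposure, and every pool of a higher concentration was below every pool of a lower one. Compared with FA, its log2 fold change on the log2(RPMMM + 1) scale was -0.38 ± 0.0947 after 1 ppm (SE; limma, adjusted p = 0.0221) and -1.39 ± 0.0947 after 2 ppm (limma, adjusted p = 2.14e-06), from the fit across all 461 entries that averaged more than 50 RPMMM. Differential expression (DE) required an adjusted p below 0.05 and at least a 2-fold change, so the difference after 1 ppm, 1.3-fold lower, was not a DE call, and that after 2 ppm, 2.61-fold lower, was. The p-values set a difference against the spread between pools within the exposures, with variances moderated over all entries tested. The labels do not say whether pools were collected on different days. The supplement of the study lists a single exposure run at 1 ppm and a single run at 2 ppm. If the O3 pools came from these, run and concentration cannot be told apart, and the spread between O3 pools holds no differences between runs.

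Its nearest relative in sequence, miR-200c-3p of the other cluster, had 13720.3, 13231 and 14154 RPMMM in FA. The level was 10936, 11009 and 12848 RPMMM after 1 ppm O3 and 5467, 5927 and 6797 RPMMM after 2 ppm O3. As deposited, the exposures again did not overlap. The log2 fold change was -0.24 ± 0.107 after 1 ppm (limma, adjusted p = 0.178) and -1.18 ± 0.107 after 2 ppm (limma, adjusted p = 1.12e-05), a DE call 2.27-fold lower.

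In the seed group of miR-200a and miR-141, miR-200a-3p had 12689, 10497 and 10435 RPMMM in FA, 9132, 8844 and 11198 RPMMM after 1 ppm O3 and 5068, 5283 and 4959 RPMMM after 2 ppm O3. The FA and 1 ppm pools overlapped, and all 2 ppm pools were below them. Its log2 fold change was -0.21 ± 0.119 after 1 ppm (limma, adjusted p = 0.34) and -1.13 ± 0.119 after 2 ppm (limma, adjusted p = 3.40e-05), which was a DE call.

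For miR-141-3p the FA pools were far apart, at 912, 742 and 416 RPMMM, beside 781, 576 and 871 RPMMM after 1 ppm O3 and 426, 384 and 364 RPMMM after 2 ppm O3. The 2 ppm pools were below all 1 ppm pools but overlapped with FA through the FA pool at 416 RPMMM, which had 223 reads of this miRNA. The log2 fold change was 0.16 ± 0.294 after 1 ppm (limma, adjusted p = 0.827), with a 95% confidence interval from -0.50 to 0.82, and -0.74 ± 0.294 after 2 ppm (limma, adjusted p = 0.0565), with an interval from -1.41 to -0.08. It was therefore not called at either concentration, but without FA pool 3, the pool at 416 RPMMM, the value after 2 ppm was -1.07 and a DE call (limma, adjusted p = 0.00613). The former interval holds 0, and the latter ends just below 0 with an unadjusted p of 0.0313 from limma.

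The member miR-429-3p had 4597, 3623 and 4314 RPMMM in FA, 3816, 4219.9 and 3842 RPMMM after 1 ppm O3 and 2333, 2109 and 2341 RPMMM after 2 ppm O3. FA and 1 ppm overlapped, and the 2 ppm pools were below both. Its log2 fold change was -0.07 ± 0.118 after 1 ppm (limma, adjusted p = 0.806) and -0.88 ± 0.118 after 2 ppm (limma, adjusted p = 0.000195), 1.84-fold lower and so short of the 2-fold threshold. This difference was within 0.05 (log2) of the median of all entries, which was -0.83 after 2 ppm.

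The 5p strands of the mir-200b cluster differed from FA already after 1 ppm O3. The level of miR-200b-5p was 1093, 1715 and 1574 RPMMM in FA, 361, 658 and 541 RPMMM after 1 ppm and 552, 580.5 and 618 RPMMM after 2 ppm. Every O3 pool was below every FA pool, and the O3 groups overlapped with each other. The log2 fold change was -1.51 ± 0.252 after 1 ppm (limma, adjusted p = 0.00234) and -1.30 ± 0.252 after 2 ppm (limma, adjusted p = 0.00183), and both were DE calls.

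Both O3 groups were also below FA for miR-200a-5p, which had 950.3, 1455 and 1570.4 RPMMM in FA, 481, 591 and 303 RPMMM after 1 ppm O3 and 319, 225 and 522 RPMMM after 2 ppm O3. All 6 O3 pools were below the FA pools, and the O3 groups overlapped. The log2 fold change was -1.55 ± 0.362 after 1 ppm (limma, adjusted p = 0.0174) and -1.95 ± 0.362 after 2 ppm (limma, adjusted p = 0.00139). The call after 1 ppm was lost when FA pool 2, FA pool 3, 1 ppm pool 1 or 1 ppm pool 3 was left out, with adjusted p-values of 0.0646, 0.0684, 0.0517 and 0.062 from limma.

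The remaining 5p strands were scarce. For miR-141-5p the FA pools had 169, 34.9 and 108 RPMMM, of the 1 ppm pools only pool 2 was above 0, at 32.4 RPMMM, and the 2 ppm pools had 46.5, 0 and 92.3 RPMMM. Its log2 fold change of -4.76 ± 2.06 after 1 ppm (limma, adjusted p = 0.177) and of -2.41 ± 2.06 after 2 ppm (limma, adjusted p = 0.322) was not called, and the size depends on the value of 1 added before the logarithm. The level of miR-200c-5p was 33.7 RPMMM, or 26 reads, in FA pool 1 and 0 in the other pools. No entry of the table belonged to miR-429-5p.

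**Figure D2:**
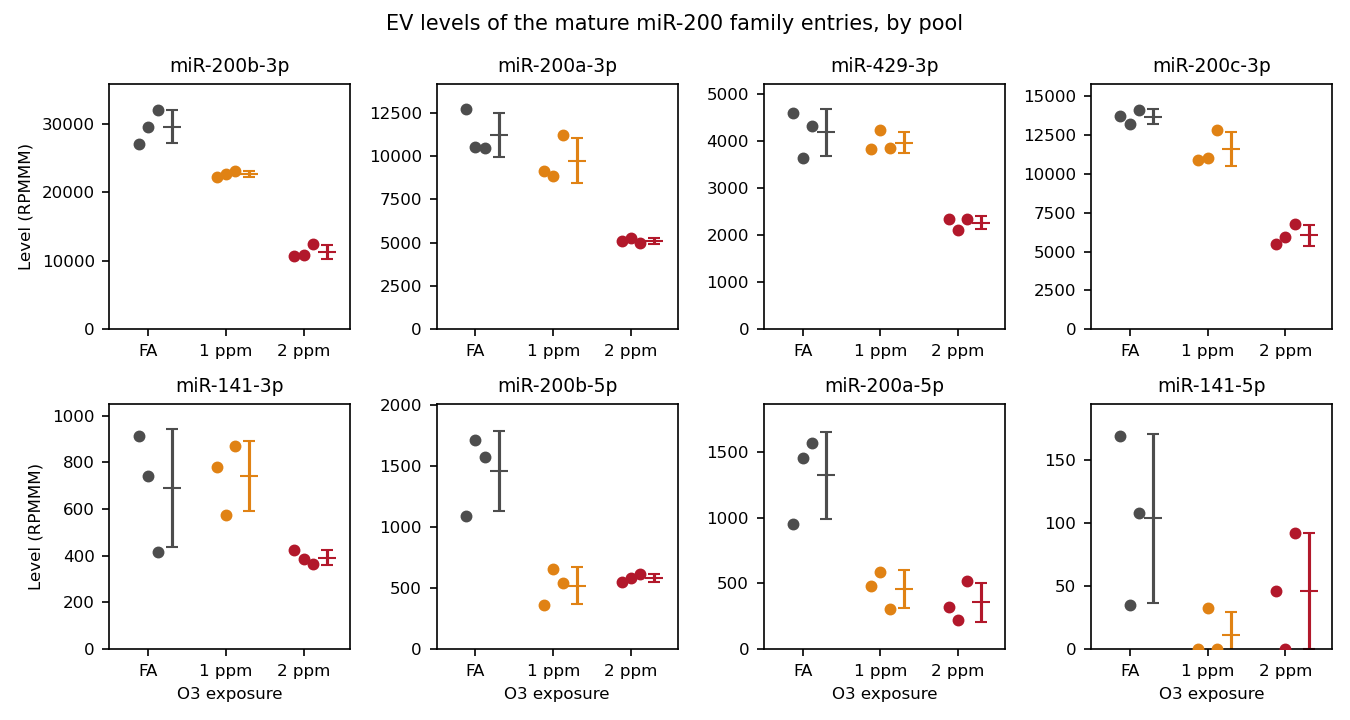
Each panel gives 1 mature miRNA, with the level in RPMMM of each pool as a point by exposure and the mean with SD (n = 3) at the right of the points; SD bars that would pass below 0 end at the axis. For miR-200b-3p and miR-200c-3p the pools stepped down from FA through 1 ppm to 2 ppm O3 without overlap, while miR-200b-5p and miR-200a-5p were already low after 1 ppm.

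Of the 41 entries, 19 had a mean above 50 RPMMM and were tested (8 mature miRNAs and 11 isomiRs). Compared with FA, 2 of the 19 were DE after 1 ppm O3, both lower and both 5p strands, miR-200b-5p and miR-200a-5p. Among all 461 entries tested 2.82% were DE and lower in this comparison and 10.4% DE and higher. Most of those higher, here and after 2 ppm, were entries of miR-2137, miR-5102, miR-5105, miR-5109, miR-5115 and miR-5126. The median log2 fold change of the 19 was -0.55, beside -0.08 for all entries, and in 9 of the 19 all O3 pools were below all FA pools, beside 18.4% of all entries.

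After 2 ppm O3, 10 of the 19 (52.6%) were DE and lower and none was higher, whereas 29.3% of all entries were DE and lower and 14.3% DE and higher. The mature members among them were miR-200b-3p, miR-200c-3p, miR-200a-3p, miR-200b-5p and miR-200a-5p. The other 5 were isomiRs of 3p strands that were called themselves, so counts among the 19 hold some strands more than once. A call also depends on the SE, which ran from 0.0947 for miR-200b-3p to 2.06 for miR-141-5p. The difference between the shares was not tested. The median log2 fold change of the 19 was -1.30, beside -0.83 for all entries. All 19 values were below 0, from -3.75 to -0.45, as were 332 of all 461 entries. With pools scaled without miR-2137 and the unmatched hairpins 17 of 20 were below 0, and with scaling by median ratios 18 of 19. Of the 19, miR-141-5p and miR-429-3p +2 had means above 50 RPMMM in FA only (104 and 91.9 RPMMM), so the filter favoured values below FA for them. In 15 of the 19 all 2 ppm pools were below all FA pools, beside 48.2% of all entries. By cluster, 7 of 13 tested entries of the mir-200b cluster and 3 of 6 of the mir-200c cluster were DE.

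Relative to the median of all entries after 2 ppm O3, the log2 change was -0.56 for miR-200b-3p, -0.36 for miR-200c-3p, -0.30 for miR-200a-3p, -0.05 for miR-429-3p and 0.08 for miR-141-3p. For the 5p strands it was -1.12 for miR-200a-5p and -0.47 for miR-200b-5p. After 1 ppm, where the median of all entries was near 0, the corresponding values were -1.47 for miR-200a-5p and -1.42 for miR-200b-5p, and those of the 3p strands lay between -0.30 for miR-200b-3p and 0.24 for miR-141-3p.

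**Figure D3:**
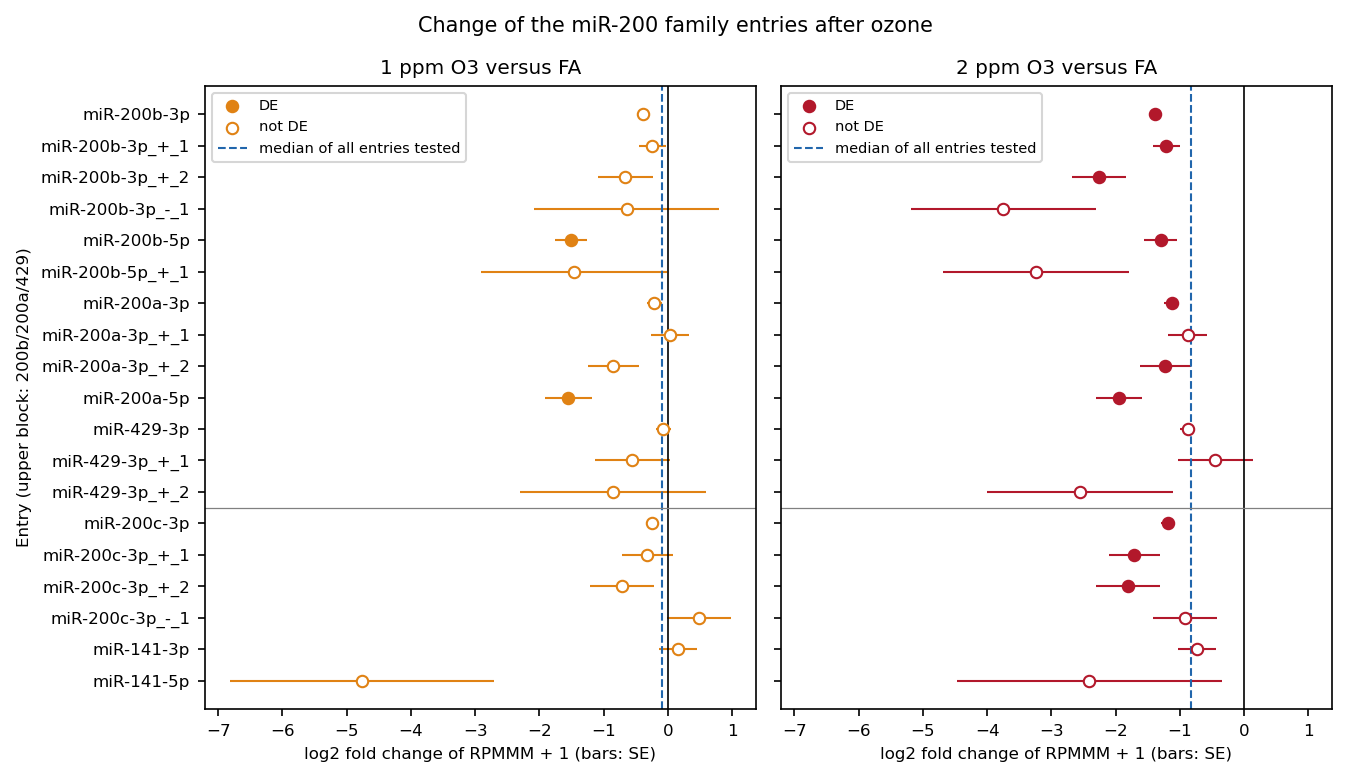
Points are log2 fold changes of RPMMM + 1 against FA with SE for the 19 tested entries, filled where DE, with the mir-200b cluster above the grey line and the mir-200c cluster below it; the dashed line is the median of all 461 entries. After 1 ppm O3 the filled points are miR-200b-5p and miR-200a-5p, and after 2 ppm all 19 points lie below 0 and 10 are filled.

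Between the O3 concentrations, 4 of the 19 were DE and lower after 2 ppm than after 1 ppm and none was higher, beside 22.3% lower and 11.3% higher among all entries. They were miR-200b-3p, 2.01-fold lower with an SE of 0.0947 on the log2 scale (limma, adjusted p = 4.96e-05), and the isomiRs miR-200b-3p +2, miR-200c-3p +1 and miR-200c-3p -1. This value lay at the fold threshold, and the call was lost without 1 ppm pool 3, where the value was -0.99, without 2 ppm pool 1 (-0.96) and without 2 ppm pool 2 (-0.97). It was also lost when the pools were scaled to another total, with -0.75 when miR-2137 was left out of the total, -0.26 when the 8 unmatched hairpins were left out as well and -0.39 with scaling by median ratios. Neither 5p strand was DE between the concentrations, with 0.21 ± 0.252 for miR-200b-5p (limma, adjusted p = 0.505) with a 95% confidence interval from -0.36 to 0.77, and -0.40 ± 0.362 for miR-200a-5p (limma, adjusted p = 0.386) with an interval from -1.21 to 0.41. Under the last 2 of these scalings miR-200b-5p was higher after 2 ppm than after 1 ppm by 0.95 (limma, adjusted p = 0.022) and 0.82 (limma, adjusted p = 0.0438), each short of a 2-fold change, and miR-200a-5p turned to 0.35 and 0.21. The median of the 19 was -0.94, beside -0.69 for all entries.

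A trend with the concentration was tested by comparing pools of different exposures in pairs, of which there were 27. The members miR-200b-3p, miR-200c-3p and miR-200b-3p +2 were lower at the higher concentration in all 27 pairs (two-sided exact permutation test, p = 0.00119 and adjusted p = 0.00704, the former being the lowest possible with 3 groups of 3), as were 6.07% of all entries. In all, 8 of the 19 fell with the concentration at an adjusted p below 0.05, beside 16.3% of all entries, and none rose, beside 12.4%. The 8 became 6 without miR-2137 in the total, 3 without miR-2137 and the unmatched hairpins and 4 with median-ratio scaling. Under each of these scalings miR-200b-3p fell in all 27 pairs. For miR-200c-3p 26 of 27 pairs fell without miR-2137, and also without miR-2137 and the unmatched hairpins, and all 27 with median-ratio scaling. For miR-200a-3p 25 of 27 pairs fell (exact permutation test, p = 0.00952, adjusted p = 0.0338), and without miR-2137 and the unmatched hairpins 23 of 27 (exact permutation test, adjusted p = 0.127). For miR-429-3p and miR-200a-5p 24 of 27 pairs were lower (exact permutation test, p = 0.0214, adjusted p = 0.0606), and for miR-141-3p and miR-200b-5p 21 of 27 (exact permutation test, p = 0.123, adjusted p = 0.197).

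The 11 tested isomiRs had means from 58 RPMMM for miR-429-3p +2 to 954 RPMMM for miR-200b-3p +1. The suffix is read here as a shift of the 5′ end by the number of bases given, which would move the seed, but the direction of each sign is not given in the sources used here. None of the 11 was DE after 1 ppm O3 (no isomiR of the family had an unadjusted p under 0.05 from limma). After 2 ppm 5 of the 11 were DE and lower, beside 29.3% of all entries. Their log2 fold changes were -1.21 for miR-200b-3p +1, -2.26 for miR-200b-3p +2, -1.23 for miR-200a-3p +2, -1.71 for miR-200c-3p +1 and -1.81 for miR-200c-3p +2 (limma, adjusted p from 0.000851 to 0.0249). Of these, miR-200b-3p +2 alone stayed DE with median-ratio scaling and without miR-2137 and the unmatched hairpins. The 2 ppm pools held 13, 29 and 11 reads of miR-200c-3p +2, close to the lowest counts above 0. The values were -3.75 ± 1.44 for miR-200b-3p -1, -3.24 ± 1.45 for miR-200b-5p +1 and -2.56 ± 1.45 for miR-429-3p +2, which were not called and each of which had a 2 ppm pool at 0. Nor were the others called, with -0.88 ± 0.299 for miR-200a-3p +1, -0.92 ± 0.497 for miR-200c-3p -1 and -0.45 ± 0.583 for miR-429-3p +1.

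The level of miR-200b-3p +2 was 438, 349 and 583 RPMMM in FA, 308, 232 and 315 RPMMM after 1 ppm O3 and 91.4, 51.8 and 167 RPMMM after 2 ppm O3, without overlap between exposures. At 2 ppm the lowest of these rests on few reads, since the smallest value above 0 in the 2 ppm pools was 34.3 to 37.3 RPMMM. By contrast miR-429-3p +1 had 192, 81.5 and 161 RPMMM in FA, 56.6, 86.5 and 160.3 RPMMM after 1 ppm and 93, 62.2 and 167 RPMMM after 2 ppm, with all exposures overlapping.

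The share of a hairpin's reads in suffixed entries was alike over the exposures for mir-200b, at 6.69% ± 0.768 in FA, 6.75% ± 0.576 after 1 ppm and 5.85% ± 1.12 after 2 ppm O3 (SD, n = 3). For mir-200a it was 7.45% ± 0.808, 7.47% ± 0.958 and 7.92% ± 1.94, and for mir-200c 5.54% ± 1.07, 5.54% ± 0.909 and 4.32% ± 0.258. These exposures overlapped for mir-200b and mir-200a, while for mir-200c the 2 ppm pools (4.14% to 4.61%) reached above the lowest FA pool at 4.42%. For mir-429 the 1 ppm pools lay at 2.26% to 5.46%, below the FA pools at 5.71% to 7.37%, and the 2 ppm pools at 5.13% to 6.66% overlapped with both. The share in mir-141, with 0% to 18.5% over the pools, rests on few reads.

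The 22 members at or below 50 RPMMM, 21 isomiRs and miR-200c-5p, had means over the pools from 2.45 to 42.6 RPMMM. In FA 21 of them were above 0 in at least 1 pool, 16 after 1 ppm O3 and 4 after 2 ppm O3. The 2 ppm pools held fewer reads and hence had a higher smallest value, so a lower level and the shallower depth were not separated for these entries.

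Inside a pool the ratio of the clusters does not depend on the total. The mir-200b cluster exceeded the mir-200c cluster 3.2-, 3.37- and 3.43-fold in FA, 3.05-, 3.23- and 2.88-fold after 1 ppm O3 and 3.25-, 3.06- and 2.98-fold after 2 ppm O3. The log2 ratio was 1.74 ± 0.0513 in FA, 1.61 ± 0.0823 after 1 ppm and 1.63 ± 0.0646 after 2 ppm (SD, n = 3), so the clusters differed from each other by little compared with the change that both showed. With FA at 1.68 to 1.78, the 1 ppm pools at 1.53 to 1.69 and the 2 ppm pools at 1.58 to 1.70, each exposure overlapped with the others.

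Ratios between single 3p strands varied more. The ratio of miR-200b-3p to miR-200c-3p was 1.97, 2.23 and 2.26 in FA, 2.03, 2.05 and 1.8 after 1 ppm O3 and 1.95, 1.82 and 1.84 after 2 ppm O3, with the FA pools above all 2 ppm pools. The ratio of miR-200b-3p to miR-429-3p was 5.89 to 8.16 in FA, 5.36 to 6.01 after 1 ppm and 4.56 to 5.34 after 2 ppm, and here the FA and 2 ppm pools did not overlap either. The ratio of miR-200a-3p to miR-141-3p was 13.9 to 25.1 in FA, 11.7 to 15.3 after 1 ppm and 11.9 to 13.8 after 2 ppm.

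The likeness of profiles over the 9 pools was described by the root mean square difference of log2 values after each profile was centred on its mean. The closest pair of mature members was miR-200b-3p and miR-200c-3p at 0.11, followed by miR-200a-3p and miR-200c-3p at 0.12, and both pairs join the clusters. Pairs of the same arm had a median of 0.25 within a cluster (5 pairs, 0.18 to 0.50) and of 0.33 between clusters (8 pairs, 0.11 to 2.56), the highest of which involve miR-141-5p with its zeros. Opposite arms were less alike, with a median of 0.71 within a cluster (8 pairs) and 0.97 between clusters (7 pairs). All these points share libraries and depth, so this is a description of the 9 pools.

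For both mir-200b and mir-200a the mean ratio of the arms was highest after 1 ppm O3. The 3p strand of mir-200b exceeded its 5p strand 24.8-, 17.2- and 20.3-fold in FA, 61.4-, 34.4- and 42.7-fold after 1 ppm and 19.3-, 18.6- and 20.2-fold after 2 ppm. The 1 ppm pools were above all others, and FA and 2 ppm overlapped. For mir-200a the ratio was 13.4, 7.22 and 6.64 in FA, 19, 15 and 36.9 after 1 ppm and 15.9, 23.5 and 9.5 after 2 ppm, with the 1 ppm pools above FA and the 2 ppm pools overlapping with both.

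A test of the arm ratio, added after these values were seen, was fitted by limma over the 60 hairpins with both arms above 50 RPMMM. After 1 ppm against FA the log2 ratio of 3p to 5p was 1.12 ± 0.331 higher for mir-200b (limma, adjusted p = 0.134) and 1.34 ± 0.515 higher for mir-200a (limma, adjusted p = 0.26), so neither difference passed. Of all hairpins 1 (1.67%) passed in this comparison, and the median change was -0.24. After 2 ppm against FA the change was -0.09 ± 0.331 for mir-200b (limma, adjusted p = 0.882) and 0.82 ± 0.515 for mir-200a (limma, adjusted p = 0.34). Between 2 and 1 ppm it was -1.21 ± 0.331 for mir-200b (limma, adjusted p = 0.11) and -0.52 ± 0.515 for mir-200a (limma, adjusted p = 0.587).

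**Figure D4:**
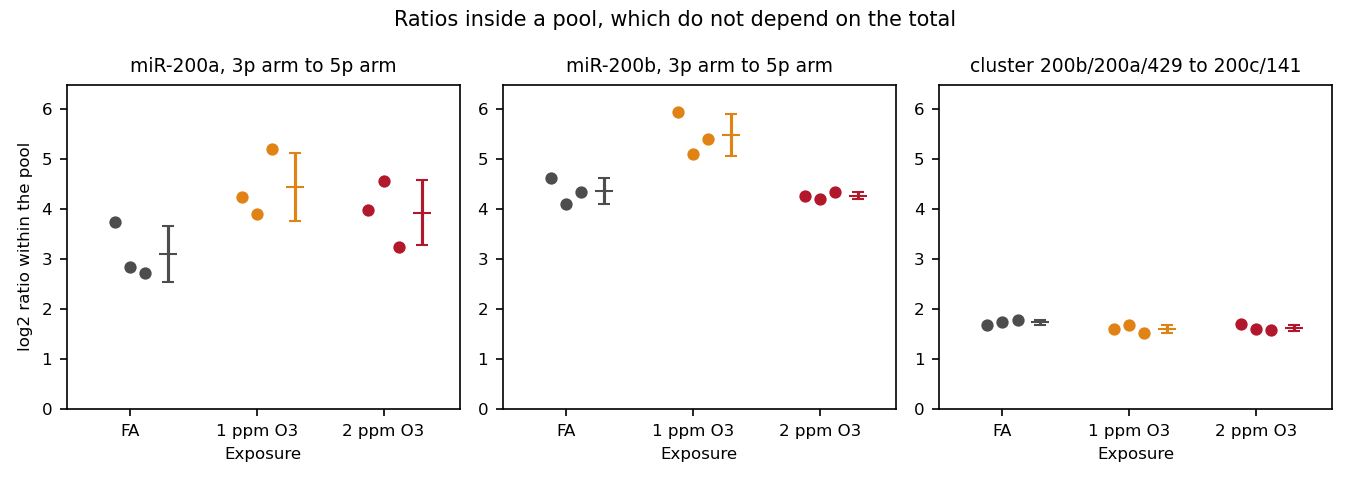
The log2 ratio within each pool is plotted by exposure, with the mean and SD (n = 3), for the 3p to 5p strands of mir-200a and mir-200b and for the sums of the clusters. The mir-200b arm ratio was highest in the 1 ppm pools (5.10 to 5.94) and the cluster ratio stayed between 1.53 and 1.78.

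The size of the fall after 2 ppm O3 depended on the total to which the pools were scaled. When miR-2137 was left out of the total, 5 of 19 members were DE and lower (20.3% of all entries). When the hairpins without a RefSeq match were left out as well, 2 of 20 were (5.62% of all entries), and with scaling by the median ratio of the entries above 0 in every pool 2 of 19 were (7.42% of all entries), miR-200a-5p and miR-200b-3p +2 in both of the latter. The median of all entries after 2 ppm moved from -0.83 to -0.51, 0.05 and -0.09 under these scalings, and that of the members from -1.30 to -0.99, -0.41 and -0.60. A scaling multiplies all values of a pool by the same factor, so both medians shift nearly alike. That the members' median stayed below that of all entries therefore carries over from the deposited values and was not tested anew.

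Set against the median of all entries, miR-200b-3p changed after 2 ppm O3 by -0.56 as deposited and -0.57, -0.57 and -0.60 under the other scalings. The corresponding values were -0.36, -0.37, -0.37 and -0.39 for miR-200c-3p and -1.12, -1.13, -1.14 and -1.16 for miR-200a-5p. A factor common to all entries of a pool shifts each entry and the median alike. The near-equality of these values is thus set by the construction of the scalings and is not a test of stability.

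Under median-ratio scaling miR-200b-3p was 0.69 lower on the log2 scale after 2 ppm O3 than in FA (-0.69, limma, adjusted p = 6.93e-05), miR-200c-3p had -0.48 (limma, adjusted p = 0.00156) and miR-200a-3p -0.43 (limma, adjusted p = 0.023), none of them a 2-fold change. The value for miR-429-3p was -0.18 (limma, adjusted p = 0.254) and that for miR-141-3p -0.05, and under the scaling without miR-2137 and the unmatched hairpins miR-141-3p turned to 0.11. In contrast miR-200a-5p was DE after 2 ppm under all 19 alternative settings, with log2 fold changes from -2.27 to -1.09. After 1 ppm, where the scalings moved the median of all entries between -0.08 and 0.04, miR-200b-5p was DE under all 19 alternatives, from -1.70 to -1.26.

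**Figure D5:**
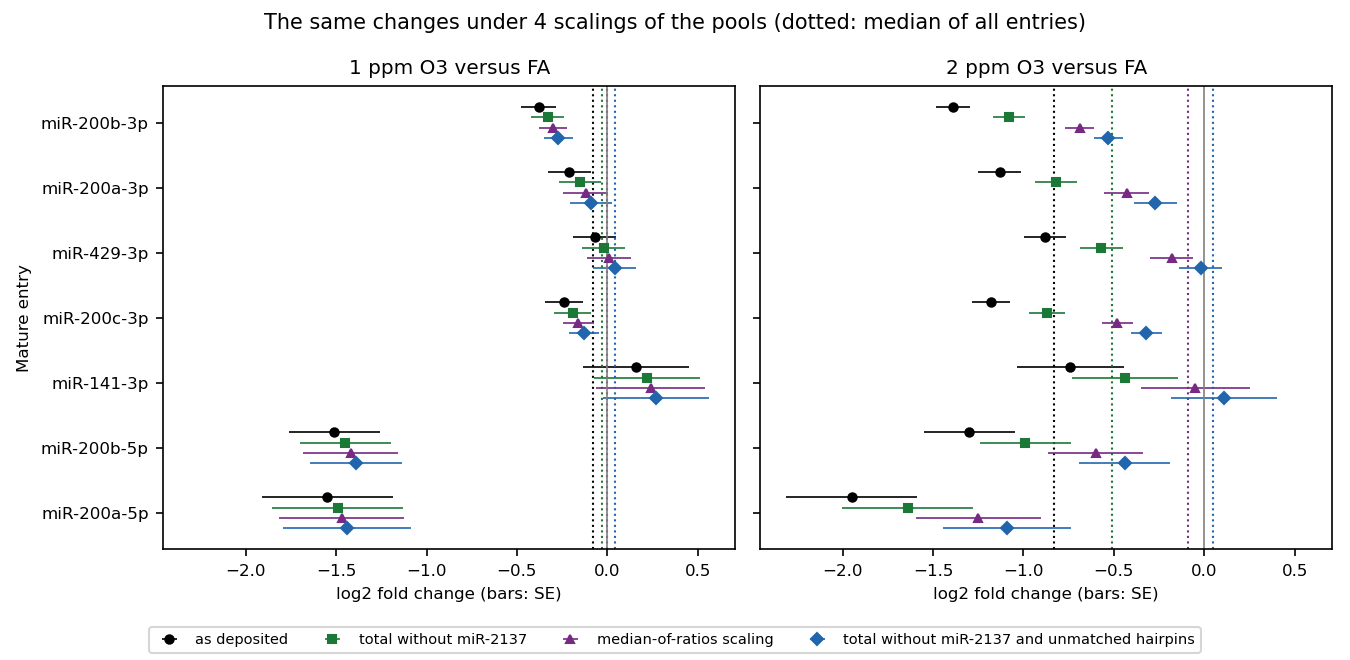
Log2 fold changes against FA with SE are shown for 7 mature members under 4 scalings of the pools, each with a dotted line at the median of all entries. After 1 ppm O3 the scalings nearly coincide. After 2 ppm the members and the median move together, because a scaling multiplies all entries of a pool by the same factor. The places of miR-200b-3p and miR-200a-5p left of the median therefore carry over from scaling to scaling.

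Among the 228 mature entries of other hairpins above 50 RPMMM, those most like the mean profile of the 8 mature members were miR-23b-5p, with a root mean square difference of 0.35, miR-672-3p (0.36), let-7c-2-3p and let-7a-1-3p, whose values were the same (0.38), and miR-7a-2-5p (0.40). The median over the 228 entries was 0.72. This mean profile includes miR-141-5p, which was above 0 in only 6 pools. It lay 2.44 to 3.10 from the other tested mature members, so its zeros weigh on which names come first. With the profile taken from the 5 strands of the 3p arm, a choice made after the values were seen, the most alike were miR-26b-5p (0.07), miR-30e-5p (0.11), the copies miR-26a-1-5p and miR-26a-2-5p (0.12) and let-7f-2-5p (0.12). The level of miR-26b-5p was 16538 RPMMM in FA, 15655 RPMMM after 1 ppm and 7443 RPMMM after 2 ppm O3.

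Other miRNAs known to be enriched in epithelia were set beside the family. Their 24 tested entries had a median log2 fold change of -0.71 after 2 ppm O3, with 4 DE and lower (miR-203-3p, miR-449a-3p, miR-182-5p +1 and miR-31-5p +1) and none higher, beside a median of -0.83 and 29.3% DE and lower among all entries. After 1 ppm their median was -0.55, beside -0.08 for all entries, with 1 DE and lower (miR-34c-3p), beside 2.82% of all entries. Their summed level was 28197 to 32902 RPMMM in FA, 21207 to 25460.0 RPMMM after 1 ppm and 24426 to 25677 RPMMM after 2 ppm, so the O3 groups overlapped, unlike those of the miR-200 family. Of the most abundant, miR-182-5p had -0.70 after 2 ppm (limma, adjusted p = 0.000649) and miR-375-3p had 0.54 (limma, adjusted p = 0.00187). For miR-34b-3p, a miRNA of ciliated cells, the value was -0.86 after 1 ppm (limma, adjusted p = 0.0321) and 0.19 after 2 ppm (limma, adjusted p = 0.476), and between 2 and 1 ppm it was DE and higher at 1.06 (limma, adjusted p = 0.00549). No entry had the names miR-449b, miR-451a, miR-1 or miR-133b, and the DE entries named for these lists were chosen after their values were seen where they are not among the most abundant 3.

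Some, but not all, lists of markers of other cells that could shed vesicles into the lavage held DE entries. The part of these cells in the family's values was not tested. Of 8 leukocyte entries 3 were DE and lower after 2 ppm (miR-142-3p, miR-155-5p and miR-342-3p), beside 29.3% of all entries, and none after 1 ppm. The 3 became 1 under each of the 3 other scalings, and the list's median after 2 ppm was -0.62, beside -0.83 for all entries. The leukocyte entries had summed levels of 2833 to 3925 RPMMM in FA, 2951 to 3692 after 1 ppm and 1817 to 2189.8 after 2 ppm, and miR-223-3p, a miRNA of neutrophils, had -0.08 after 2 ppm (limma, adjusted p = 0.793). All 3 entries of the endothelial miR-126, which come from the same hairpin, were DE and higher after 2 ppm, beside 14.3% of all entries. After 1 ppm 1 was (miR-126-5p), beside 10.4% of all entries. The sums for miR-126 were 112 to 314 RPMMM in FA, 445 to 938 after 1 ppm and 764 to 912 after 2 ppm. None of 12 mesenchymal entries was DE at either concentration, with sums of 6199 to 14694 RPMMM in FA, 7226 to 10724 after 1 ppm and 6517 to 6625 after 2 ppm. Of 2 erythroid entries 1, miR-451, was DE and lower after 1 ppm, beside 2.82% of all entries, and none after 2 ppm (884 to 1822 RPMMM in FA, 149.8 to 343 after 1 ppm, 158 to 948 after 2 ppm). All 4 striated muscle entries were DE and lower after 2 ppm, beside 29.3% of all entries, and none after 1 ppm (235 to 6029 RPMMM in FA, 146 to 217 after 1 ppm, 0 to 179 after 2 ppm). These entries are genomic copies of miR-1a and of a miR-133a isomiR, and copies had equal fold changes, so the count holds each measurement more than once. The FA pools were far apart, with miR-1a at 907 ± 1160.2 RPMMM (SD, n = 3), beside means of 74.8 after 1 ppm and 29.8 after 2 ppm.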

How the data were processed

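Small RNA libraries of BALF EV RNA were sequenced by the authors from 9 pools, 3 per exposure. Per the methods of the study, reads were trimmed, aligned to mm9 and quantified as miRNAs and isomiRs with miRquant 2.0, and the authors deposited RPM of miRNA reads (RPMMM), which sum to 1000000 in each pool. These values are not counts. Between 68.3% and 84% of low values lay on steps of 1 read (within 0.006 RPMMM), too few for a count test, and the steps gave the depth.

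From these values, log2(RPMMM + 1) of the 461 entries that averaged more than 50 RPMMM was modelled in R 4.3.3 by limma 3.58.1. The model had 1 mean per exposure over all 9 pools and a variance that could depend on the level, with Benjamini-Hochberg adjustment over all of them. DE required an adjusted p below 0.05 and at least a 2-fold change, the thresholds of the study, whose text does not name the test of the sequencing data. The fit called 13 entries lower and 48 higher after 1 ppm, and 135 lower and 66 higher after 2 ppm. The study reported fewer DE miRNAs, with more lower than higher at both concentrations. Here isomiRs and genomic copies count as entries, so the counts cannot be set directly beside those of the study. Trends used an exact permutation test over the 1680 arrangements of the pools, adjusted over the same entries. Cluster sums, ratios, shares and profile distances are descriptions. Both tests were tested on simulated data. Sequences and names were matched to RefSeq (GRCm38.p6) and positions taken from the mm9 annotation.

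All mature members and all isomiRs above 50 RPMMM are named, other members are given by counts, and from each marker list up to 3 mature entries with the highest mean could be named. The members, the marker lists and the alternatives were chosen with earlier results of these data known, and the arm ratio test and the 3p profile after these values were seen. Alternatives covered the pseudocount (0.5 and 10), the filter, the scaling, isomiRs, the model and each pool left out. Other steps used Python 3.11.15 with pandas 2.3.3, numpy 2.4.6 and scipy 1.17.1, and plots used matplotlib 3.10.9.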

Additional observations from a re-analysis of the deposited data

How the results depend on the processing

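The calls were computed under 19 alternatives. After 2 ppm O3 the number of DE members, 10 as deposited, was 5 without miR-2137 in the total, 2 without miR-2137 and the unmatched hairpins and 2 with median-ratio scaling, and 5 of 8 when only mature miRNAs were tested. It was 9 to 13 when a pool was left out. After 1 ppm O3 it was 2 under all 10 settings other than leaving out a pool, and 1 to 2 with a pool left out (1 without FA pool 2, FA pool 3, 1 ppm pool 1 or 1 ppm pool 3). Between 2 and 1 ppm the 4 DE members became 2, 0 and 0 under the same scalings, 1 with mature miRNAs only, and 0 to 6 with a pool left out (0 without 1 ppm pool 3, 2 without 1 ppm pool 1). The 8 falling trends became 4 with no filter on low values, 3 without miR-2137 and the unmatched hairpins, 4 with median-ratio scaling, 3 with mature miRNAs only, and 4 to 8 with a pool left out (4 without 2 ppm pool 1, 5 without FA pool 1, FA pool 3 or 2 ppm pool 2).

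The log2 difference of the mir-200b cluster after 1 ppm moved to -0.25 without miR-2137 and the unmatched hairpins and to -0.27 with median-ratio scaling. After 2 ppm it moved to -0.98, -0.43 and -0.59 under the 3 scalings, and that of the mir-200c cluster to -0.87, -0.32 and -0.48. With a pool left out, the differences lay between -1.35 and -1.25 for the mir-200b cluster and between -1.27 and -1.11 for the mir-200c cluster after 2 ppm. Under each of the 3 scalings the DE entries of the other epithelial list after 1 ppm were 0 and of the leukocyte list after 2 ppm 1, and with median-ratio scaling those of striated muscle were 2 of the 2 tested.

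Some differences that were not called changed sign. After 1 ppm miR-429-3p turned to 0.04 without miR-2137 and the unmatched hairpins, 0.01 with median-ratio scaling and 0.00 without FA pool 1, and miR-141-3p to -0.17 without FA pool 3 (up to 0.40 with another pool left out). After 2 ppm miR-141-3p turned to 0.11 without miR-2137 and the unmatched hairpins. Between 2 and 1 ppm miR-200a-5p turned to 0.35 and 0.21 under the last 2 scalings and miR-200b-5p to -0.03 without 1 ppm pool 1 (up to 0.40 with another pool left out, and 0.46, 0.95 and 0.82 under the scalings). Leaving out a pool also gained 3 calls of mature members, miR-141-3p after 2 ppm (-1.07 without FA pool 3) and, between 2 and 1 ppm, miR-141-3p (-1.08 without 1 ppm pool 2) and miR-200c-3p (-1.02 without 2 ppm pool 3). The arm ratio change of mir-200b after 2 ppm was 0.05 without FA pool 1 and as low as -0.22 with another pool left out. Beyond the scalings, whose construction changes the total, the cause of these changes was not tested.

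No paired analysis was possible because the labels carry no replicate numbers that the exposures share. Depth limits the isomiRs and miR-141-5p, since a value above 0 needs about 10 reads and the 2 ppm pools held the fewest.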
